A study of Mus musculus with 24 samples.

Results

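The genes described here make cholesterol in mouse liver, set how much of it is made through the transcription factor SREBP2, or take up, move and esterify the product. The set holds 30 genes chosen by name, and 28 of them were measured among the 18193 genes of the arrays. Acat2 and Soat2 had no probe set annotated with that symbol alone and were not analysed here. Where a gene had several probe sets, the one with the highest mean over the 24 arrays was used. Of the 28 measured genes, 4 belong to the control of SREBP2, 18 encode enzymes of synthesis and 6 belong to transport and esterification.

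Liver RNA was measured with 1 Affymetrix array per mouse in male BALB/c mice that were bought at 6 weeks of age. After a week on a nonpurified diet, the control mice received the purified diet AIN93G for 14 days. The other groups received AIN93G with 0.1%, 0.5% or 1.0% quercetin, a flavonol of plant foods, for the same time, with 6 mice per diet. The labels number the mice within a diet but tie none to a cage, so an effect of the cage and one of the diet cannot be told apart. The sources used here do not give the clock time of collection.

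Cholesterol is built from acetyl-CoA by way of mevalonate, the isoprenoid pyrophosphates, squalene and lanosterol. SREBP2 is held in the endoplasmic reticulum by SCAP and the INSIG proteins while sterols are plentiful. When sterols fall, SCAP carries it to the Golgi, where it is cut, and the freed part enters the nucleus and switches on most genes of the pathway, including Insig1 and its own gene. The liver is a main site of this synthesis and of the clearing of lipoprotein cholesterol from blood.

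Values are log2(intensity + 1) after quantile normalization, and differences are on that scale with their standard error (SE) from limma. A gene is said to pass at a Benjamini-Hochberg adjusted p of 0.05 over all 18193 genes. The deposited arrays had median intensities of 4.78 to 7.58, and precision is set by there being 6 of them per diet. The hepatocyte markers Alb, Ttr, Apoa1, Tat, Cps1 and Cyp2e1 were all measured, with summed levels from 39742 to 43973 over the 24 arrays. Each quercetin group overlapped control. The sums at 1.0% (39742 to 41311) all lay below those at 0.1% (41349 to 43258). In whole liver, fewer cells of a type and less RNA per cell cannot be told apart. On the first principal component of all genes, 4 arrays lay more than 5 median absolute deviations from the median: replicates 4 and 6 of the 0.5% group and replicates 4 and 5 of the 1.0% group. Replicate 2 of the 1.0% group stood apart on the second component, and replicate 1 of the 0.5% group and replicate 6 of the 1.0% group had a high signal of 18S ribosomal RNA. The 2 arrays of high 18S signal also had the largest excess of 3′ over 5′ signal for actin, 1.33 and 1.17 on the log2 scale. In the other arrays it ran from 0.83 to 1.08.

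None of the 28 genes passed in any of the 8 limma tests, so no member is called as changed by the diet. The members nearest to passing were Insig2 and Sqle, by their slopes over dose (limma adjusted p = 0.108 and 0.168, lower and higher with more quercetin). Next came Mylip and Sc5d, both lower at 0.5% than at 0.1% (adjusted p = 0.223 and 0.260), and the slope of Idi1 (0.297). For 0.1% against control 0 of 28 members passed, as did 0% of all genes. For 0.5% against control 0 of 28 passed, beside 0.0165% of all genes, and for 1.0% against control 0 of 28, beside 0.022%. For the slope of the log2 value over the percent of quercetin 0 of 28 passed, beside 0.0989% of all genes. The test for any difference among the 4 diets passed 0 of 28 members and 0.181% of all genes.

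At an unadjusted p under 0.05, members were counted beside the same share of all genes. At 0.1% quercetin 1 of 28 members stood under that line (3.57%), against 5.11% of all genes. At 0.5% there were 4 of 28 (14.3%, against 7.65%), all lower than control, as were 3.91% of all genes: Insig2, Mylip, Npc2 and Sc5d. That count was 0 without normalization between arrays, 1 with arrays centred on their medians and 0 without the 4 arrays apart on the first component. At 1.0% there were 6 of 28 (21.4%, against 8.92%): Sqle, Idi1, Srebf2, Msmo1 and Cyp51 higher (4.45% of all genes were) and Insig2 lower. Under the same 3 alternatives that count was 3, 4 and 5. For the slope there were 5 of 28 (17.9%, against 10.9%), with Sqle, Idi1 and Cyp51 higher and Insig2 and Sc5d lower as quercetin increased. For any difference among the 4 diets there were 6 of 28, against 9.49% of all genes. No member's values were separated from those of control without overlap at any dose, while 0.39%, 0.456% and 0.797% of all genes were, at 0.1%, 0.5% and 1.0%.

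**Figure D1:**
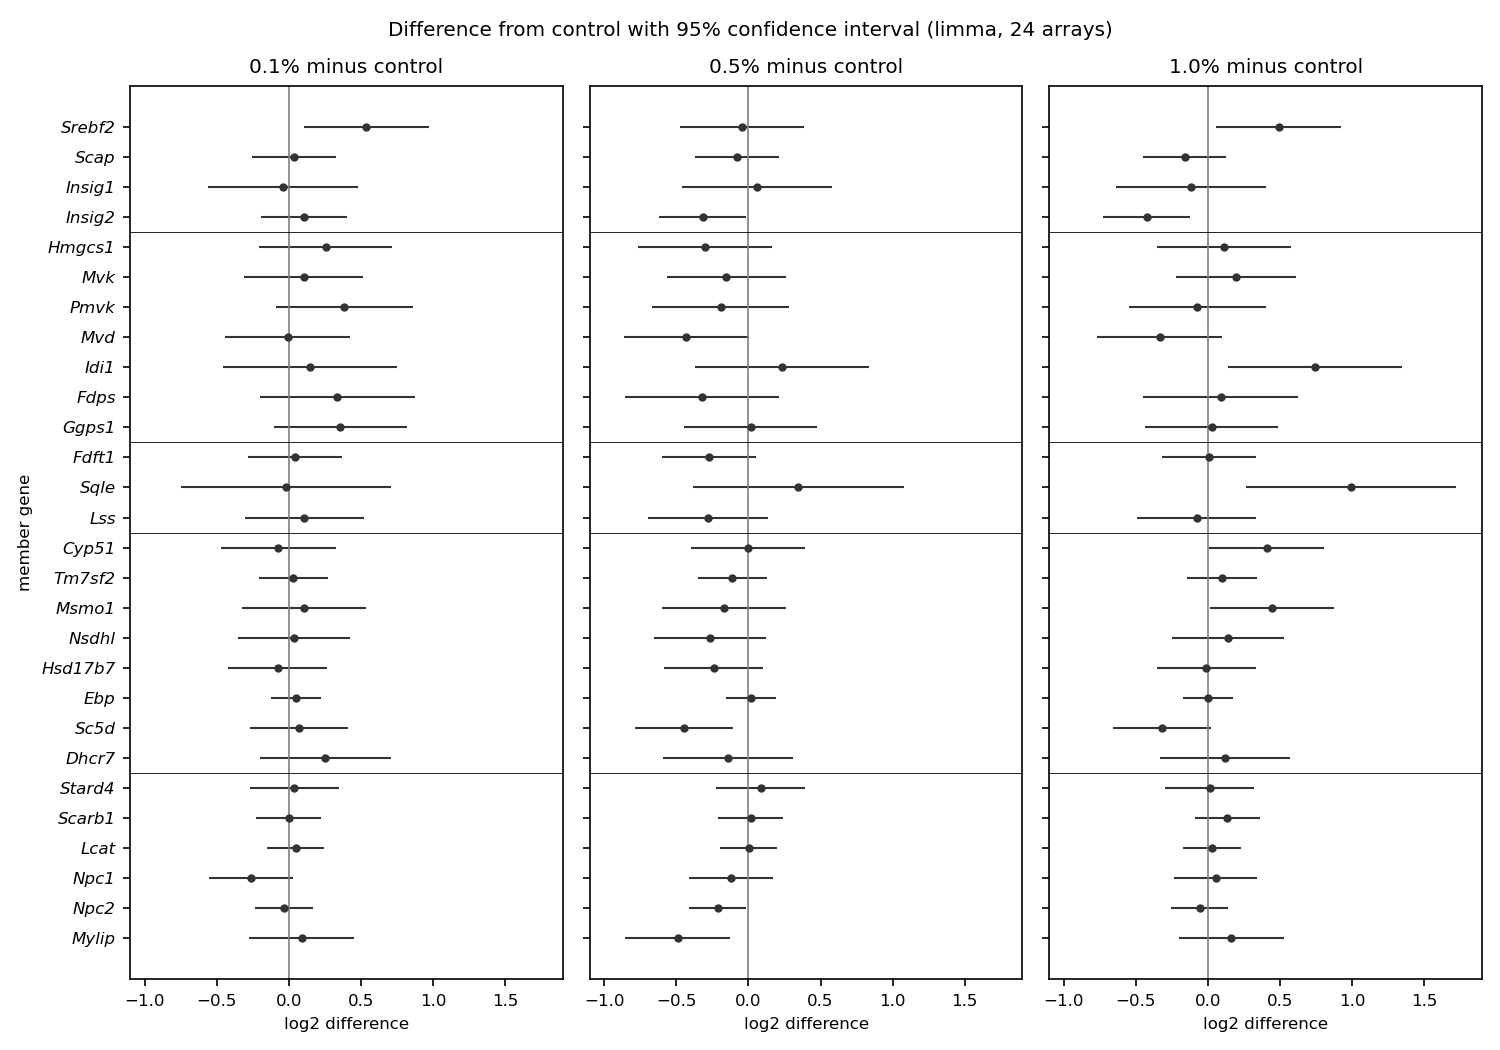
Difference of each of the 28 measured genes from control (x axis, log2, with 95% confidence interval from limma over 24 arrays) at 0.1%, 0.5% and 1.0% quercetin, with genes on the y axis in order of their role. At 1.0% the intervals of Srebf2, Idi1, Sqle, Cyp51 and Msmo1 lie above 0 and that of Insig2 below it, before any adjustment for the 18193 genes tested.

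Among the genes of control, Insig2 encodes an endoplasmic reticulum protein that holds SCAP and SREBP back. Its lowest, median and highest log2 levels were 10.93, 11.12 and 11.27 in control, 11.10, 11.14 and 11.44 at 0.1%, 10.34, 10.81 and 11.20 at 0.5%, and 10.17, 10.67 and 11.13 at 1.0%. In the 1.0% group 5 of 6 livers lay below the control mean, but the groups overlapped. The difference from control was -0.42 at 1.0% (SE 0.14, limma adjusted p = 0.401) and -0.32 at 0.5% (adjusted p = 0.633). The slope was -0.51 per 1% quercetin (SE 0.13, adjusted p = 0.108). All of the gene's probe sets ran the same way, with slopes of -0.42, -0.54 and -0.51. The slope passed without replicate 2 of the 1.0% group, the highest of its group (-0.60, adjusted p = 0.0430), and was weakest without replicate 5 of that group, the lowest (-0.42, adjusted p = 0.299). It also passed with a pseudocount of 16 (adjusted p = 0.0445) and over the brighter part of the genes (adjusted p = 0.0375).

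Srebf2 itself encodes SREBP2. Its lowest, median and highest levels were 3.91, 4.25 and 4.77 in control, 4.36, 4.88 and 5.37 at 0.1%, 3.75, 4.34 and 4.67 at 0.5%, and 4.38, 4.99 and 5.05 at 1.0%. The levels were higher at the lowest and highest doses and not at the middle one: the differences from control were 0.54 (SE 0.21, limma adjusted p = 0.942), -0.04 and 0.49 (SE 0.21, adjusted p = 0.496). In control, replicates 1 to 3 averaged 4.68 and replicates 4 to 6 averaged 3.96. With only replicates 1 to 3 of each diet the difference at 0.1% was 0.17, and with only replicates 4 to 6 it was 0.90. A second Srebf2 probe set did not show the difference, with 0.11 (SE 0.22) at 0.1% and -0.05 (SE 0.22) at 1.0%.

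The other control genes were closer to control. Insig1, the sterol-responsive partner of Insig2, differed by -0.12 at 1.0% (95% interval -0.64 to 0.40), and its livers were spread from 6.59 to 8.09 in control but only from 7.21 to 7.58 at 1.0%. Scap, the escort of SREBP2, differed by 0.04, -0.08 and -0.16 at the 3 doses. At 1.0% its interval ran from -0.45 to 0.13.

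**Figure D2:**
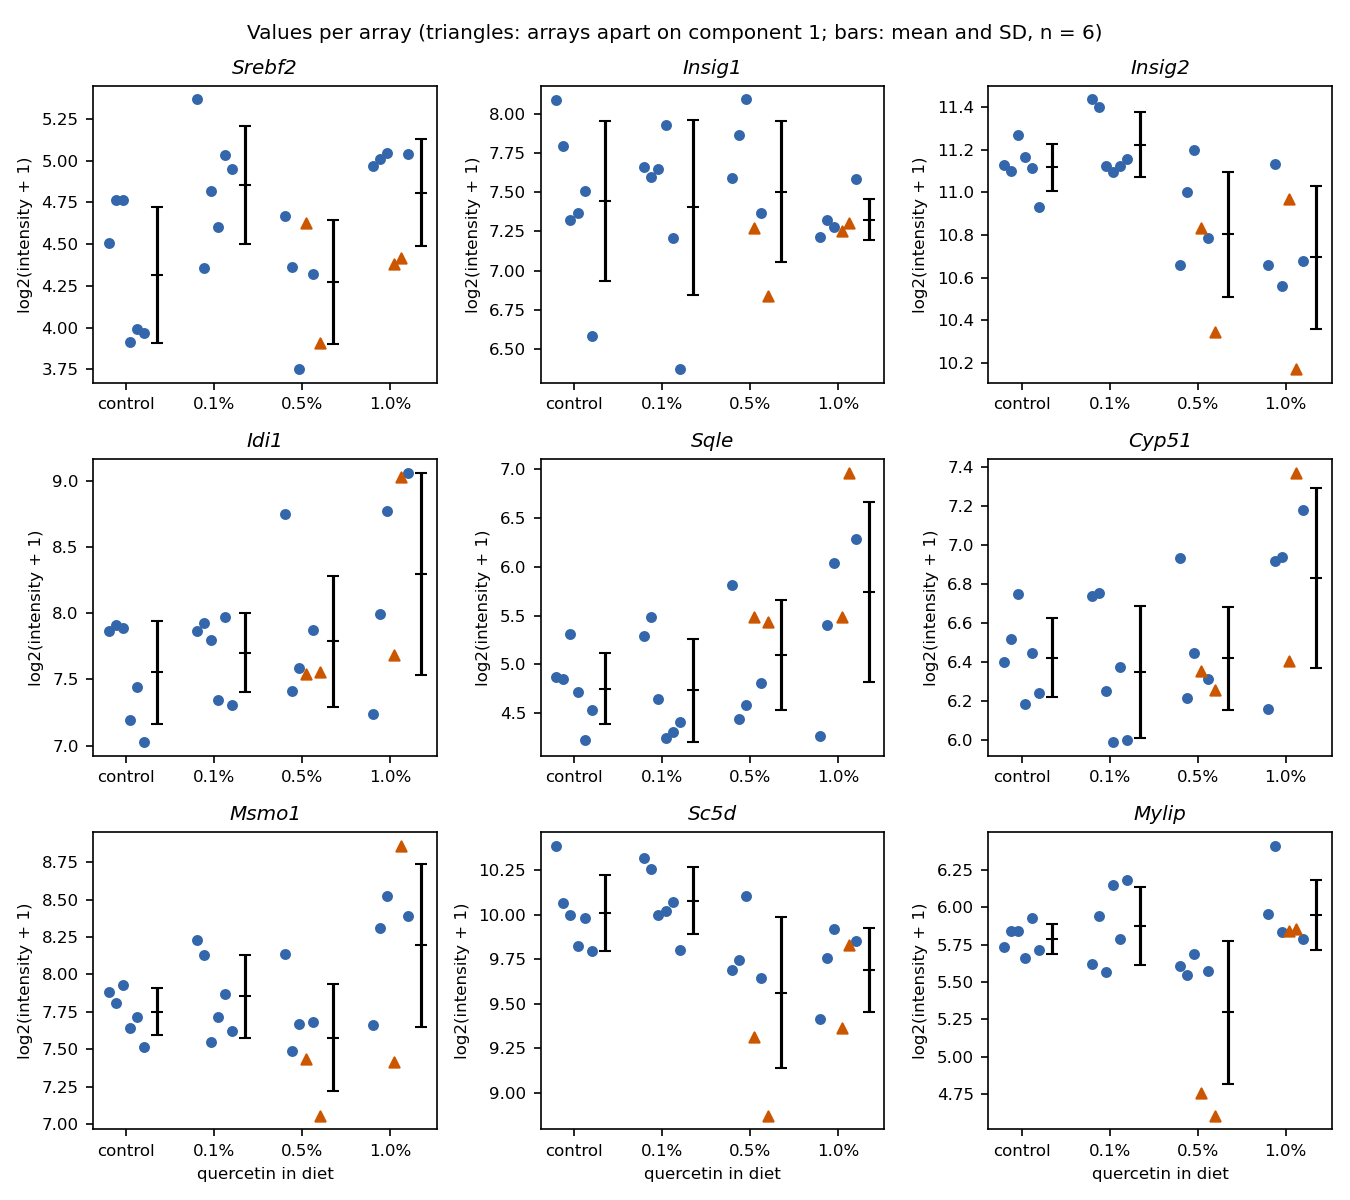
Levels of 9 members (y axis, log2(intensity + 1), one panel per gene with its own range) in every liver of the 4 diets (x axis); triangles mark the 4 arrays apart on component 1, and bars are the mean and SD of 6 mice. Insig2 has its lowest values at 0.5% and 1.0%, Sqle, Idi1, Cyp51 and Msmo1 have wide upper values at 1.0%, and the lowest Mylip values at 0.5% are triangles.

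The mevalonate steps turn acetyl units into the isoprenoid pyrophosphates, and 7 genes of these steps were measured. Idi1, which isomerizes isopentenyl pyrophosphate, had lowest, median and highest levels of 7.02, 7.65 and 7.91 in control, 7.31, 7.83 and 7.97 at 0.1%, 7.41, 7.57 and 8.75 at 0.5%, and 7.24, 8.39 and 9.06 at 1.0%. In the 1.0% group 5 of 6 livers lay above the control mean, and replicates 2, 3, 5 and 6 lay above every control liver. Of these, replicate 5 stood apart on the first component, replicate 2 on the second, and replicate 6 had high 18S signal. The difference at 1.0% was 0.74 (SE 0.29, limma adjusted p = 0.453), a 1.68-fold change, and the slope was 0.69 (SE 0.25, adjusted p = 0.297). Without replicate 6 of the 1.0% group the difference at 1.0% was 0.59. A dimmer Idi1 probe set gave 0.54 (SE 0.23) at 1.0%. With only replicates 1 to 3 the difference at 1.0% was 0.12, and with only replicates 4 to 6 it was 1.37.

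Hmgcs1 makes HMG-CoA, the substrate of the committed step. Its lowest, median and highest levels were 9.29, 9.53 and 9.85 in control, 9.61, 9.80 and 10.10 at 0.1%, 8.34, 9.48 and 9.73 at 0.5%, and 8.79, 9.85 and 10.09 at 1.0%. The lowest 2 livers at 0.5% and the lowest at 1.0% were among the 4 arrays apart on the first component. The difference at 0.5% was -0.30, and without those arrays it was 0.02.

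Fdps makes farnesyl pyrophosphate, the branch point to sterols and other isoprenoids. It lay at 8.64, 8.89 and 9.49 (lowest, median, highest) in control, 8.74, 9.18 and 9.98 at 0.1%, 8.04, 8.61 and 9.16 at 0.5%, and 8.20, 9.31 and 9.45 at 1.0%. Pmvk, a kinase of the pathway, lay at 5.93, 6.43 and 6.84 in control, 6.19, 6.68 and 7.61 at 0.1%, 5.61, 6.27 and 6.71 at 0.5%, and 6.11, 6.42 and 6.67 at 1.0%. For both genes the highest livers of the study were replicates 1 and 2 of the 0.1% group. Their differences from control were 0.34 and 0.39 at 0.1%, -0.32 and -0.19 at 0.5%, and 0.09 and -0.07 at 1.0%.

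Mvd, the decarboxylase that makes isopentenyl pyrophosphate, was the mevalonate gene lowest against control at the higher doses. It lay at 4.50, 4.89 and 5.23 in control, 4.30, 4.93 and 5.38 at 0.1%, 3.70, 4.48 and 4.83 at 0.5%, and 3.93, 4.55 and 5.06 at 1.0%. The differences were -0.43 at 0.5% (SE 0.21, limma adjusted p = 0.657) and -0.33 at 1.0%. No liver of the 0.5% group reached the control mean. Ggps1, which makes geranylgeranyl pyrophosphate, lay at 3.71, 3.90 and 4.33 in control, 4.08, 4.30 and 4.69 at 0.1%, 3.30, 3.90 and 4.69 at 0.5%, and 3.16, 4.00 and 4.66 at 1.0%. Its difference was 0.36 at 0.1% and at most 0.03 at the other doses. Mvk, the first kinase after mevalonate, differed by 0.10, -0.15 and 0.20. The chosen probe sets of Hmgcs1, Fdft1 and Hsd17b7 (suffix _x_at) and of Ggps1 and Lss (suffix _s_at) can also bind related transcripts, so their values are uncertain to that extent.

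From squalene to lanosterol, Sqle was the member with the largest difference from control. Squalene epoxidase, its product, adds the first oxygen of the sterol and is a control point of the pathway. Sqle levels were 4.22, 4.78 and 5.31 in control, 4.24, 4.53 and 5.49 at 0.1%, 4.44, 5.13 and 5.81 at 0.5%, and 4.26, 5.77 and 6.97 at 1.0% (lowest, median, highest). At 1.0%, 5 of 6 livers lay above every control liver, while replicate 1 lay among the lowest of the study. The difference was 0.99 (SE 0.35, limma adjusted p = 0.416), a 1.99-fold change with a 95% interval of 0.27 to 1.72 on the log2 scale. The slope was 1.03 (SE 0.30, adjusted p = 0.168), and without replicate 1 of the 1.0% group it was 1.29 and passed (adjusted p = 0.0390). Without replicate 5, the highest of that group, it was 0.79 (adjusted p = 0.421). With only replicates 1 to 3 the difference at 1.0% was 0.23, and with only replicates 4 to 6 it was 1.76 (adjusted p = 0.211). The other genes of this stretch did not share it: Fdft1, squalene synthase, differed by 0.01 at 1.0% (95% interval -0.32 to 0.34), and Lss, lanosterol synthase, by -0.08 (-0.49 to 0.34).

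Of the 8 genes from lanosterol to cholesterol, Cyp51 and Msmo1, which carry out early demethylations, were higher at 1.0% and Sc5d, a late desaturase, was lower. Cyp51 lay at 6.18, 6.42 and 6.75 in control, 5.99, 6.31 and 6.75 at 0.1%, 6.22, 6.33 and 6.93 at 0.5%, and 6.16, 6.93 and 7.37 at 1.0%. Msmo1 lay at 7.51, 7.76 and 7.93 in control, 7.55, 7.79 and 8.23 at 0.1%, 7.06, 7.58 and 8.14 at 0.5%, and 7.42, 8.35 and 8.86 at 1.0%. In both genes the same 4 livers of the 1.0% group, replicates 2, 3, 5 and 6, lay above all control livers. Of these, replicate 5 stood apart on the first component, replicate 2 on the second, and replicate 6 had high 18S signal. The differences at 1.0% were 0.41 for Cyp51 (SE 0.19, limma adjusted p = 0.550) and 0.44 for Msmo1 (SE 0.21, adjusted p = 0.548). With single arrays left out, the unadjusted limma p stayed under 0.05 in 13 of 24 fits for Cyp51 and 16 of 24 for Msmo1. Both differences were smallest without replicate 5 of the 1.0% group, at 0.30 and 0.31. The next brightest Cyp51 probe set gave 0.44 (SE 0.23) and a dim one 0.41 (SE 0.44), but with that dim probe set the differences from 0.1% and from 0.5% turned to -0.010 and -0.092. The second Msmo1 probe set, with a mean level of only 1.51, gave the opposite direction: -0.33 (SE 0.43) against control and -0.33 against 0.5%.

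Sc5d lay at 9.80, 9.99 and 10.39 in control, 9.80, 10.05 and 10.32 at 0.1%, 8.87, 9.67 and 10.11 at 0.5%, and 9.37, 9.79 and 9.92 at 1.0%. All 6 livers at 1.0% lay below the control mean, and so did 5 of 6 at 0.5%. The differences were -0.45 at 0.5% (SE 0.16, limma adjusted p = 0.559) and -0.32 at 1.0% (SE 0.16, adjusted p = 0.608), and the slope was -0.41 (adjusted p = 0.322). The other Sc5d probe sets gave -0.43 and -0.74 at 1.0%. Over the 20 arrays left when the 4 apart on the first component were dropped, the difference at 0.5% was -0.21 and that at 1.0% was -0.27.

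The remaining genes of this stretch were Tm7sf2, Nsdhl, Hsd17b7, Ebp and Dhcr7, which reduce, oxidize or isomerize the sterol ring. Their differences from control at 1.0% lay between -0.01 and 0.14. Ebp, the sterol isomerase, was the most tightly measured, with a difference of 0.00 at 1.0% and a 95% interval of -0.17 to 0.17. Dhcr7, which makes cholesterol from its last precursor, differed by 0.25, -0.14 and 0.12 at the 3 doses.

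Among the genes of transport and esterification, Mylip encodes IDOL, a ubiquitin ligase that marks lipoprotein receptors for breakdown. Its lowest, median and highest levels were 5.66, 5.79 and 5.93 in control, 5.56, 5.87 and 6.18 at 0.1%, 4.61, 5.56 and 5.69 at 0.5%, and 5.79, 5.85 and 6.41 at 1.0%. Every liver at 1.0% lay above every liver at 0.5%, the only separation without overlap among the members in this pair of diets, where 0.286% of all genes were separated. The difference between those diets was 0.65 (SE 0.18, limma adjusted p = 0.425), and that between 0.5% and control was -0.49 (SE 0.18, adjusted p = 0.555). Replicates 4 and 6 of the 0.5% group, at 4.76 and 4.61, carried most of it: without the 4 arrays that stood apart, the difference from control at 0.5% was -0.18.

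Npc1 and Npc2 carry cholesterol out of lysosomes. Npc2 lay at 8.25, 8.43 and 8.52 in control, 8.21, 8.35 and 8.50 at 0.1%, 7.88, 8.24 and 8.33 at 0.5%, and 8.13, 8.37 and 8.61 at 1.0%. Its difference of -0.21 at 0.5% (SE 0.10, limma adjusted p = 0.626) was not shared by a probe set of similar brightness, which gave -0.0026, and it turned to 0.014 without normalization between arrays. Npc1 lay at 6.33, 6.62 and 7.04 in control, 6.18, 6.35 and 6.59 at 0.1%, 6.02, 6.56 and 6.95 at 0.5%, and 6.39, 6.70 and 6.87 at 1.0%. It was lower at 0.1% (-0.26, adjusted p = 0.993) with all 6 livers below the control mean. Scarb1, the HDL receptor, Lcat, which esterifies cholesterol in plasma, and Stard4, a cytosolic sterol carrier, differed by 0.14, 0.03 and 0.01 at 1.0%, with 95% intervals of -0.09 to 0.36, -0.17 to 0.23 and -0.30 to 0.32.

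Between doses, most members stood lower at 0.5% than at the doses on either side. Only 7 of 28 were higher at 0.5% than at 0.1% (25%, against 45.3% of all genes). With arrays centred on their medians, 12 of 28 were higher at 0.5% than at 0.1% and 14 of 28 higher at 1.0% than at 0.5%, so this course depended on the scaling. For 0.5% against 0.1%, 0 of 28 members passed beside 0.214% of all genes, and at an unadjusted p under 0.05 there were 7 of 28 (25%, against 10.1% of all genes), all lower at 0.5% (5.74% of all genes): Fdps, Hmgcs1, Insig2, Mylip, Pmvk, Sc5d and Srebf2. Those 7 became 2 with arrays centred on their medians, 1 without normalization and 3 without the 4 arrays apart. For 1.0% against 0.5%, 0 of 28 passed beside 0.022%, and 5 of 28 stood under the unadjusted line (17.9%, against 6.19%), all higher at 1.0% (3.25% of all genes): Cyp51, Msmo1, Mylip, Nsdhl and Srebf2. Those 5 became 3, 1 and 4 under the same alternatives. For 1.0% against 0.1%, 0 of 28 passed beside 0.253%, and 5 of 28 stood under that line (17.9%, against 9.42%): Cyp51, Npc1 and Sqle higher, Insig2 and Sc5d lower. Insig2 had the smallest p there (-0.53, SE 0.14, limma adjusted p = 0.157), with all 6 livers at 1.0% below the mean of the 0.1% group.

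The direction of the whole set is given by counts. Against control, 20 of 28 members were higher at 0.1% (52.3% of all genes), 8 of 28 at 0.5% (46.6%) and 19 of 28 at 1.0% (48.4%), with median differences of 0.05, -0.15 and 0.04. For 1.0% against 0.5%, 23 of 28 members (82.1%, against 51.4% of all genes) and 17 of the 18 enzymes of synthesis were higher, with a median of 0.27 over the enzymes. With arrays centred on their medians these were 14 of 28 members and 12 of 18 enzymes, with an enzyme median of 0.07. Without normalization they were 16 and 13, with 0.10. These directions depended on the scaling and on a few arrays. Without normalization between arrays 27, 18 and 20 of 28 members were higher than control at 0.1%, 0.5% and 1.0%, where the median of all genes had itself shifted by 0.11, 0.15 and 0.05. With arrays centred on their medians the numbers were 16, 13 and 13. Over the 20 arrays left without the 4 apart on the first component, 15 of 28 were higher at 0.5% and 21 of 28 at 1.0%.

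**Figure D3:**
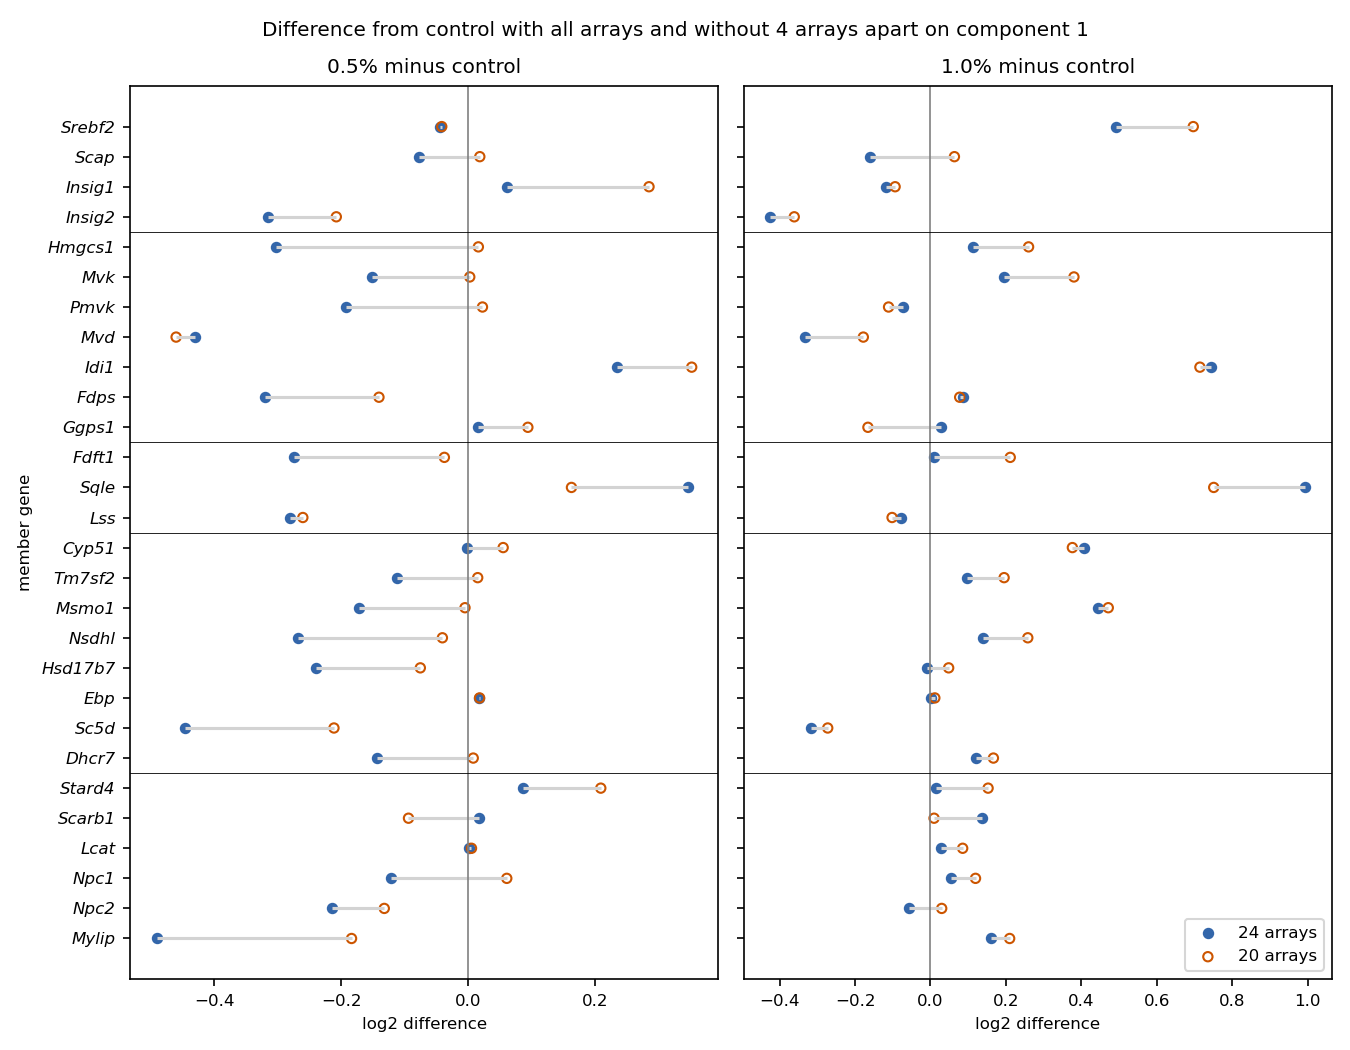
Difference of each member from control (x axis, log2) at 0.5% (left) and 1.0% (right) over all 24 arrays (filled) and over the 20 arrays left without replicates 4 and 6 of the 0.5% group and 4 and 5 of the 1.0% group (open). At 0.5% most members move toward 0, among them Mylip from -0.49 to -0.18 and Hmgcs1 from -0.30 to 0.02, while at 1.0% Sqle moves from 0.99 to 0.75 and Srebf2 from 0.49 to 0.70.

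Livers of one diet differed widely from each other. The number of the 18 enzymes above the control mean ran from 2 to 13 among control livers, from 3 to 18 at 0.1%, from 2 to 12 at 0.5% and from 3 to 16 at 1.0%. In control it was 13 in each of replicates 1 to 3 and 2, 5 and 4 in replicates 4 to 6. In the 0.1% group replicates 1 to 3 had 18, 17 and 10 enzymes above it, and replicates 4 to 6 had 3, 11 and 6. In the 0.5% group replicates 1 to 3 had 12, 3 and 11, and replicates 4 to 6 had 3, 3 and 2. In the 1.0% group replicates 2, 3, 5 and 6 had 16, 14, 11 and 12, and replicates 1 and 4 had 3 and 5. Within each diet some livers had most enzymes above the control mean and others had few. In control, at 0.1% and at 0.5% the highest count lay in replicates 1 to 3 and the lowest in replicates 4 to 6. At 1.0% both lay in replicates 1 to 3.

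**Figure D4:**
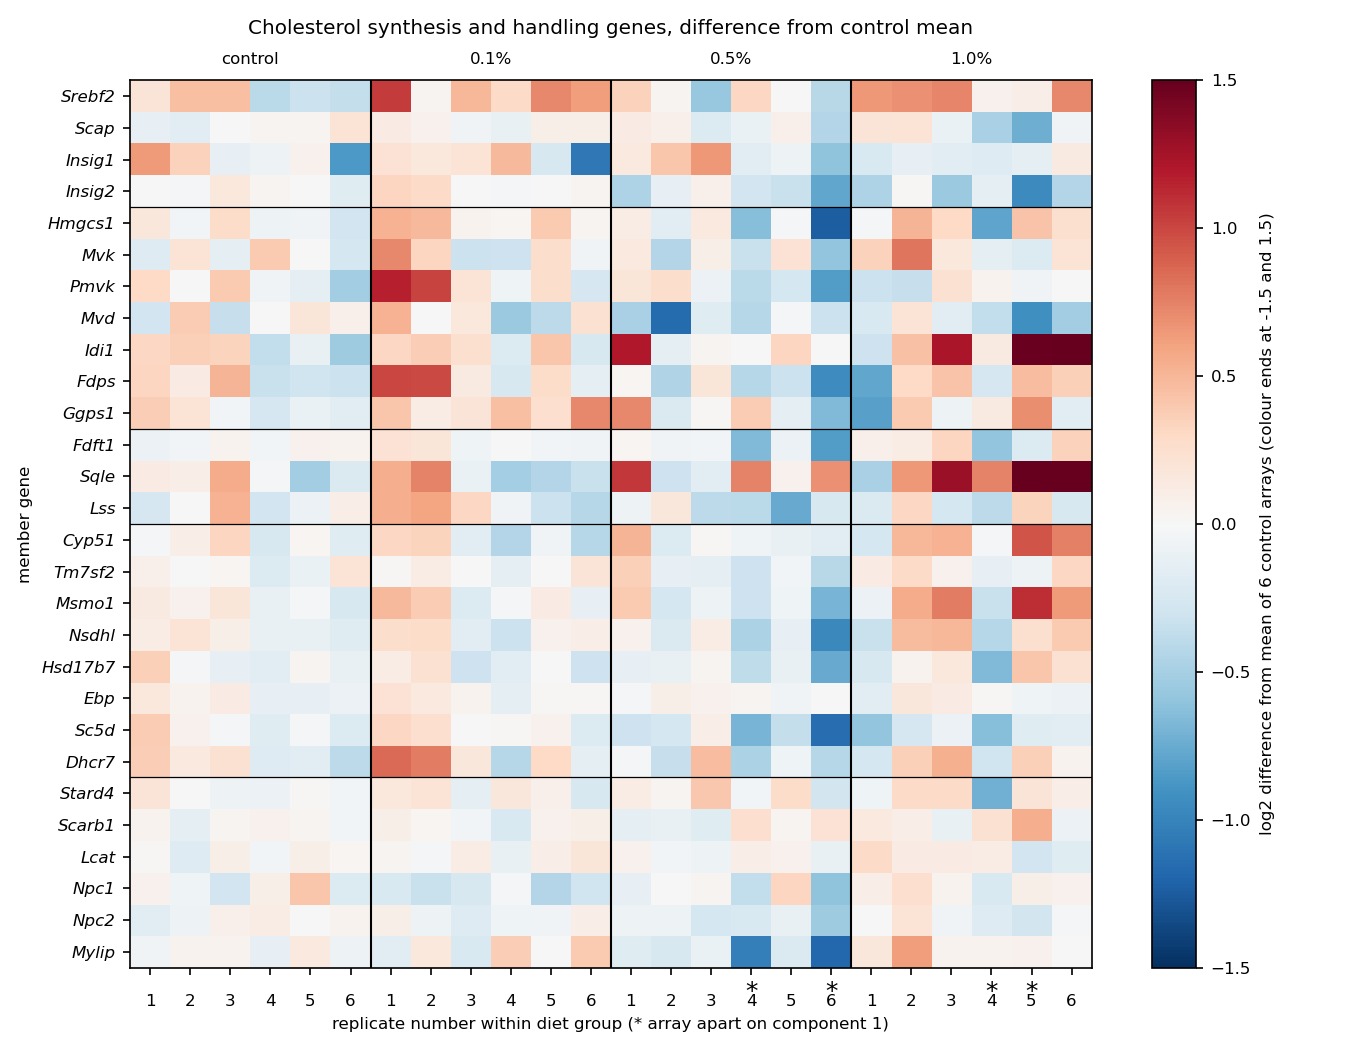
Difference of each liver (columns, 6 replicates per diet) from the control mean for each of the 28 members (rows, grouped by role), as log2 with colours ending at -1.5 and 1.5; stars mark the 4 arrays apart on component 1. Blocks of one colour down a column show livers where most enzymes were high, as in replicates 1 and 2 at 0.1%, or low, as in replicate 6 at 0.5%.

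That covariation was measured over the 24 livers after the mean of each diet was removed. Of the 378 pairs of members, 79 passed by permutation (two-sided, Pearson r, 100000 resamples, Benjamini-Hochberg over the pairs), 78 of them positive. Without the 4 arrays that stood apart 59 passed, and 47 passed in both. An r of at least 0.6 was found in 16.1% of the members' pairs, against 0.695% of all pairs of the 18193 genes (17.2% and 0.695% without the 4 arrays). An r above 0 was found in 79.6% of the members' pairs, against 50.4% of all pairs. The pairs share arrays and genes, so they are not independent of one another. Fdps averaged 9.30 in replicates 1 to 3 and 8.66 in replicates 4 to 6 of control. The same means were 9.69 and 8.94 at 0.1%, 8.90 and 8.42 at 0.5%, and 8.96 and 9.17 at 1.0%. Means of such sets of 3 were not removed, and their part in the counts of pairs was not tested.

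The closest pair was Fdps and Dhcr7, with r = 0.90 and Spearman rho = 0.91 (permutation p = 1e-05 for each, the smallest that 100000 resamples can give; adjusted p = 0.00027 and 0.000252). Its r was 0.90 without the 2 livers farthest from the median of Fdps and 0.91 without the 4 arrays that stood apart. Idi1 and Cyp51 had r = 0.88 and rho = 0.86 (permutation p = 1e-05 for each; adjusted p = 0.00027 and 0.000252), with r = 0.81 without the 2 farthest livers. Cyp51 and Msmo1 had r = 0.87 and rho = 0.89 (permutation p = 2e-05 and 1e-05; adjusted p = 0.000504 and 0.000252), with r = 0.83 without the 2 farthest. Sqle and Cyp51 had r = 0.82 and rho = 0.69 (permutation p = 3e-05 and 0.00081; adjusted p = 0.000597 and 0.00765), with r = 0.72 without the 2 farthest and 0.89 without the 4 arrays. Among replicates 1 to 3 this r was 0.95 and among replicates 4 to 6 it was 0.65. The 2 enzymes with the largest differences at 1.0% against control, Sqle and Idi1, had r = 0.77 and rho = 0.66 (permutation p = 0.00016 and 0.00146; adjusted p = 0.00189 and 0.0128), with r = 0.66 without the 2 farthest and 0.85 without the 4 arrays.

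The members differed in how many partners they had. Fdps and Nsdhl passed with 12 of 27 other members, and Hmgcs1, Msmo1, Hsd17b7, Sc5d and Dhcr7 with 11. Without the 4 arrays Fdps and Msmo1 had 11 partners, Sc5d 10, and Nsdhl and Dhcr7 9, while Hsd17b7 had 5 in place of 11, Stard4 2 in place of 10, Fdft1 3 in place of 9 and Mvk 0 in place of 5. Over all arrays Srebf2, Ggps1, Lss and Lcat passed with 0, of which Lcat had 2 without the 4 arrays. Insig2 passed with Ebp alone, and Insig1 with Sc5d, Hsd17b7 and Stard4. The one negative pair was Fdft1 and Scarb1 (r = -0.67, rho = -0.69; permutation p = 0.00878 and 0.00242, adjusted p = 0.0443 and 0.0191), with r = -0.69 without the 2 farthest and -0.24 without the 4 arrays. No relation of the Srebf2 transcript to the other 27 members passed. At an unadjusted permutation p under 0.05 stood Scap by Pearson's r (r = 0.42, rho = 0.36, p = 0.0391 and 0.105) and Idi1 by Spearman's rho (r = 0.34, rho = 0.43, p = 0.111 and 0.0482). Both had adjusted p = 0.441 and 0.398, and r without the 2 farthest livers was 0.44 and 0.39. Without normalization between arrays 18 of 27 passed, a setting in which the brightness of each array enters every gene.

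**Figure D5:**
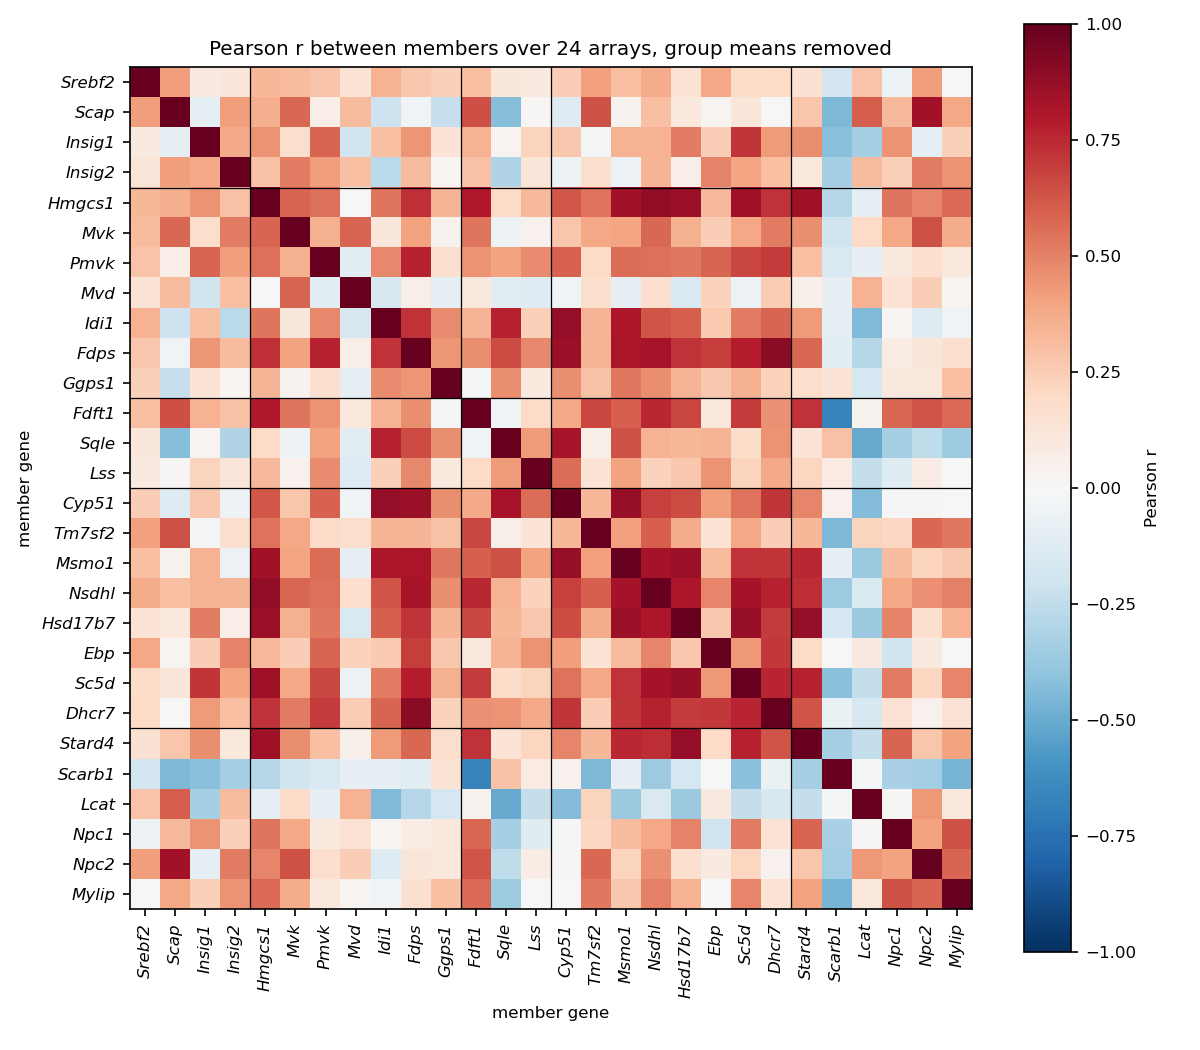
Pearson r between all pairs of the 28 members over 24 livers with the mean of each diet removed (both axes, members in order of role; colour from -1 to 1). The enzymes from Hmgcs1 to Dhcr7 form a block of positive r, with Fdps and Dhcr7 at 0.90, from which Mvd, Ggps1 and Lss stand out as pale rows, as do Scarb1 and Lcat outside it.

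The sequences before the start site are shown for 4 enzyme genes. Hmgcs1 is shown because it holds the sterol regulatory element. The other 3 are the enzymes with an entry that were higher at 1.0% at an unadjusted p under 0.05. All 4 were chosen after their values were seen. Each run is the 150 bases before the start site in the RefSeq promoter table of assembly GRCm38.p6, on the gene's own strand, 5′ to 3′. They lie at chr13:119690201-119690350 on the plus strand for Hmgcs1, at chr13:8885456-8885605 on the plus strand for Idi1, at chr5:4104698-4104847 on the minus strand for Cyp51 and at chr8:64733579-64733728 on the minus strand for Msmo1. Capitals mark a match to the sterol regulatory element TCACNCCAC or to the CCAAT box, on either strand; a CCAAT on the other strand reads ATTGG here. The sterol regulatory element is the site SREBP binds, and the CCAAT box binds NF-Y, its usual partner.
Hmgcs1: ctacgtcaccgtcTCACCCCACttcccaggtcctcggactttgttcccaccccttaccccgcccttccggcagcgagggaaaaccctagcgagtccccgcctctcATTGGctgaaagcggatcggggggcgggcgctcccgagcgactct
Idi1: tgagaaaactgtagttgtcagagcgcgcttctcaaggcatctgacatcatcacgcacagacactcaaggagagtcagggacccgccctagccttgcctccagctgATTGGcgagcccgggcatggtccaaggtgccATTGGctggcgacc
Cyp51: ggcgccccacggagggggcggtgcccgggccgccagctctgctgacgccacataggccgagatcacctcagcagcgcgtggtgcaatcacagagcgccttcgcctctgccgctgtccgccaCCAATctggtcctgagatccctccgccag
Msmo1: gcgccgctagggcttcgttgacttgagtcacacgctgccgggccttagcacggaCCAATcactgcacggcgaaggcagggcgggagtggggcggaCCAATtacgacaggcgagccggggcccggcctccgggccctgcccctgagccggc

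Over the 250 bases before the start, CCAAT on either strand was found in 20 of the 22 members with an entry (90.9%), against 34.5% of 27025 promoters in the table. TCACNCCAC was found in 1 of 22 (Hmgcs1), against 1.04% of the promoters. Fdps, Fdft1, Sqle, Stard4, Scarb1 and Npc1 had no entry in the table. The motifs do not overlap in the windows shown. CCAAT was also found in Srebf2, Ggps1, Lss and Lcat, which passed with no other member over all arrays. A match is a description of letters, and the absence of one says only that these letters are not in the window. The part of these sites in the covariation was not tested.

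Other genes around the pathway were read from 7 lists, of which 57 of 63 genes were measured. The lists of SREBP processing and sterol-regulated degradation (8 measured), acetyl-CoA supply and electron donors (8), isoprenoid branches (8), and LXR and sterol efflux (6) had no gene that passed in any of the 8 limma tests. At 1.0% their median differences from control were 0.04, -0.12, -0.09 and -0.07, beside -0.01 for all genes. For 0.5% against 0.1%, 6 of 8 genes of acetyl-CoA supply had an unadjusted limma p under 0.05, beside 10.1% of all genes. In that comparison 6 of the 8 were lower and 2 higher, with a median of -0.31. Each of the other 3 lists had 1 gene under that line there. Mbtps1 and Mbtps2, the proteases that cut SREBP, differed by 0.02 and 0.15 at 1.0%. Abcg5 and Abcg8, which pump sterols into bile, differed by -0.08 and -0.07.

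SREBP1 is the factor of fatty acid synthesis, and most genes of its list were below control at 1.0%, where Sqle and Idi1 were above it. The 18 enzymes of sterol synthesis had medians of -0.18 at 0.5% and 0.09 at 1.0%, with 14 and 5 of them below control. Of the 10 genes of the SREBP1 list 9 were below control at 0.5% and 9 at 1.0%, with medians of -0.34 and -0.50. The 1 gene above control at each of these doses differed by 0.94 and 0.65. In limma 0 of the list passed, while 6 of 10 at 1.0% had an unadjusted p under 0.05, beside 8.92% of all genes. At 1.0%, 48.4% of all genes were above control. Fasn, fatty acid synthase, differed by -0.88 (SE 0.36, adjusted p = 0.481) and Scd1, a desaturase, by -0.66 (SE 0.17, adjusted p = 0.292). With a pseudocount of 16, 5 of the list's tests passed, and with single arrays left out 0 to 2 did: 2 when replicate 6 of the 0.5% group was dropped, and 1 when replicate 3 of the 0.5% group or replicate 2 or 6 of the 1.0% group was.

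In the bile acid list Nr0b2 alone passed; it encodes SHP, which represses bile acid synthesis. Its lowest, median and highest levels were 8.54, 9.25 and 9.55 in control, 8.69, 9.33 and 9.58 at 0.1%, 7.55, 8.30 and 9.46 at 0.5%, and 7.61, 8.10 and 8.43 at 1.0%. Every liver at 1.0% was below every control liver and every liver at 0.1%. Of all genes, 0.396% were lower without overlap at 1.0% than in control, and 0.544% than at 0.1%. Against 0.1% it was a fall of 1.21 on the log2 scale (estimate -1.21, SE 0.25, limma adjusted p = 0.0371), and the slope fell by 1.22 per 1% quercetin (-1.22, SE 0.23, adjusted p = 0.0312). Neither call held without normalization between arrays, with sets of 3 replicates as a random effect, with only replicates 1 to 3 or only 4 to 6, or without the 4 arrays apart on the first component. Cyp7a1, the rate-limiting enzyme of bile acid synthesis, differed by 0.21 at 1.0% (SE 0.50, adjusted p = 0.941). The list's 2 passing tests became 0 without any 1 of replicates 1, 2, 4 and 5 of the 0.1% group or replicates 3 and 5 of the 1.0% group, and 4 without replicate 1 of the 0.5% group. They became 1 without any 1 of control replicates 1, 3 and 4, replicate 6 of the 0.1% group, replicate 5 of the 0.5% group or replicates 1, 2, 4 and 6 of the 1.0% group.

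Sterol synthesis in liver follows a daily rhythm, and clock output genes differed between the quercetin diets. Dbp, a clock-driven transcription factor, lay at 5.22, 6.78 and 8.04 in control, 3.68, 4.04 and 6.48 at 0.1%, 5.72, 7.71 and 9.07 at 0.5%, and 6.80, 8.68 and 9.40 at 1.0%. It rose by 3.96 from 0.1% to 1.0% (SE 0.58, limma adjusted p = 0.00302) and by 3.06 from 0.1% to 0.5% (adjusted p = 0.0303). Tef and Nr1d2 rose in the same comparisons (1.13 and 1.06 for 1.0% against 0.1%), and the glucose-6-phosphatase gene G6pc fell by 1.40 there (-1.40, adjusted p = 0.0302). Of the 11 measured genes 0 passed against control. The list's 10 passing tests became 5 when replicate 1 or 2 of the 0.1% group was dropped and 6 when replicate 3, 5 or 6 of it was. The part of clock phase or feeding time in the members' values was not tested.

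Neutrophil markers stood higher at the upper doses. The summed level of the 6 markers ran from 56.2 to 90.6 in control, 65.7 to 105 at 0.1%, 82.8 to 1469 at 0.5% and 106 to 371 at 1.0%, none of the markers at 0. The medians of these sums were 76.5, 84.8, 130 and 155 in the same order. The sums at 1.0% did not overlap those of control. Higher than control were all 6 at 0.1%, 5 of 6 at 0.5% and all 6 at 1.0%, beside 52.3%, 46.6% and 48.4% of all genes. The median differences of these markers were 0.13, 0.99 and 0.65. In limma 0 markers passed, while 4 at 0.5% and 1 at 1.0% had an unadjusted p under 0.05, beside 7.65% and 8.92% of all genes. Their part in the members' values was not tested. All 6 stellate markers were lower than control at 0.5% and at 1.0%, where 46.6% and 48.4% of all genes were higher. The medians of the stellate differences were -0.23 and -0.10. Again 0 passed, and 2 of 6 at 0.5% and 0 of 6 at 1.0% had an unadjusted limma p under 0.05. The stellate sums overlapped control. The sums of Kupffer cell, endothelial, cholangiocyte, erythroid, pancreas acinar and adipocyte markers overlapped between each quercetin diet and control.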

How the data were processed

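Per the labels' protocols, total liver RNA of each of 24 mice was labelled with biotin and hybridized to 1 Affymetrix array. The authors deposited linear intensity values for 45101 probe sets; the steps behind them, background correction included, were not given in the sources used here. Of these, 34945 carried 1 gene symbol in the platform annotation, 932 several and 9211 none listed, and 13 control probe sets with a symbol were left out. Intensities were taken as log2(value + 1), which understates folds of dim genes, quantile-normalized, and fitted with limma 3.58.1 in R 4.3.3 (lmFit, eBayes, two-sided, 24 arrays, 4 groups). Replicates are separate mice. Permutation tests used numpy 2.4.6 under Python 3.11.15.

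The members and the gene lists were chosen with earlier results of these data known. Values by group are given for members among the 12 smallest p over the diets and the 5 smallest p for each dose and the slope.

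The fit was tested on simulated data, with 50 genes changed by each size. For 1.0% against control it recovered 22% of log2 changes of 0.5, 40% of 1, 82% of 2 and 100% of 3. For the slope it recovered 28%, 50%, 84% and 100%. Most changes of the size seen in the members would thus be missed in the comparison with control. Alternatives were normalization, pseudocount, dim-gene filter, probe set choice, eBayes options, array weights, 2-group fits, blocks and left-out arrays.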

Additional observations from a re-analysis of the deposited data

Results flagged for a closer look

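Among 112 groups of 6 livers (28 genes in 4 diets), 6 held a liver far from the others by Dixon's test, where chance gives about 1 in 20. Insig1 in replicate 6 of the 1.0% group (7.58) and Idi1 (8.75) and Cyp51 (6.93) in replicate 1 of the 0.5% group were the highest of their groups, in the 2 arrays with high 18S signal. Hsd17b7 in control replicate 1 (7.48) and Mylip in replicate 2 of the 1.0% group (6.41) were also the highest of their groups. Stard4 in replicate 4 of the 1.0% group (6.79) was the lowest of its group, in an array that stood apart on the first component.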

How the results depend on the processing

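The number of members passing stayed at 0 in each comparison between diets under every alternative run. For the slope it was 1 (Insig2) with a pseudocount of 16, with the brighter part of the genes and without the array apart on the second component, and ran from 0 to 1 as single arrays were left out. Among named members, Npc2 at 0.5% against control turned to 0.014 without normalization between arrays, 0.0013 with the mean of probe sets and 0.047 with the most variable probe set. With that probe set Msmo1 turned to -0.33 at 1.0% against control and -0.33 against 0.5%, and Cyp51 to -0.010 against 0.1% and -0.092 against 0.5%. Relations to Srebf2 passed 18 of 27 without normalization between arrays and 0 under the other settings. The bile acid list's 2 passing tests became 0 without normalization between arrays, with the replicate block, with sets of 3 as a random effect, with only replicates 1 to 3 or 4 to 6 and without the arrays apart on the first component. They became 1 with arrays centred on medians, the most variable probe set, array weights or without the array apart on the second component, and 4 without the arrays of high 18S signal (0 to 4 with single arrays left out). The clock list's 10 became 5 without normalization between arrays, 18 with a pseudocount of 16, 16 with the brighter part, 4 with the most variable probe set, 6 with the replicate block, 6 with only replicates 1 to 3 and 1 with only replicates 4 to 6 (5 to 13 with single arrays left out). The SREBP1 list's 0 became 5 with a pseudocount of 16, 5 with the brighter part, and 1 with trend and robust eBayes, without the array apart on the second component or without the arrays of high 18S signal (0 to 2 with single arrays left out). The causes were not tested.

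Replicate numbers did not pair the mice: over 36 pairs of arrays with the same number the correlation of deviations ran from -0.064 to 0.111 (median 0.0039), and 4 of 24 arrays correlated best with their own number. With the replicate block 0 members passed in each test. The settings without arrays apart or of high 18S signal, and all settings of the lists, were added after the data were seen. Over all genes the slope called 18; it called 103 with a pseudocount of 16, 129 over the brighter part, 85 with trend and robust eBayes, 10 with the most variable probe set, 7 with sets of 3 as a random effect, 3 and 0 with only replicates 1 to 3 and 4 to 6, and 0 without normalization between arrays.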
